A study of Mus musculus with 6 samples.

Results

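The integrated stress response and the supply of amino acids were followed through 35 genes in the messenger RNA of mouse pancreatic islets, chosen by gene name from the 54532 genes of the deposited table. All 35 names were found, and for a name listed more than once (Ddit3) the row with the highest mean was taken. Of the 35 genes, 32 had a mean of at least 0.5 FPKM over the 6 libraries and were tested. The other 3, Cth, Slc7a3 and Slc7a11, are given as values only. None of these 32 genes had a group mean under 0.5 FPKM, so none of them passed through its higher group alone.

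The 3 libraries labelled Wtap-βKO came from mice named as lacking Wtap in β cells, and the 3 libraries of Wtap flox/flox mice carried the floxed but undeleted gene. Mice were 7 weeks old, and the islets of 3 mice were pooled for each library. The labels do not name the Cre driver, the deleted part of Wtap or the mouse strain. WTAP anchors the methyltransferase that places N6-methyladenosine on messenger RNA, and the study concerns its role in β cells. Islets also hold α, δ and PP cells with some vessels, stroma and exocrine cells. Fewer cells of a type and less RNA per cell cannot be told apart in such bulk RNA.

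Between 16353297 and 18682745 reads per library were recovered from the FPKM values (sequenced fragments scaled to gene length and library depth). Wtap itself was at 11.2, 11.9 and 12.3 FPKM in the libraries labelled Wtap-βKO, against 10.5, 11.4 and 11.6 FPKM in Wtap flox/flox libraries. The log2 fold change of Wtap was 0.07 (95% interval -0.08 to 0.22, limma adjusted p = 0.475), so directions below are those of the libraries as labelled. The sum of 10 β-cell markers, mostly insulin, was 82000 to 92600 FPKM in the libraries labelled Wtap-βKO and 135000 to 155000 FPKM in Wtap flox/flox libraries, and 8 of the 10 fell by limma. The sum of 9 α-cell markers was 33800 to 44700 FPKM in the libraries labelled Wtap-βKO, against 21200 to 25500 FPKM in Wtap flox/flox libraries, and 4 of the 9 rose. The summed markers of δ, stellate, ductal, macrophage and B-lineage cells also lay higher in the libraries labelled Wtap-βKO without overlap, while those of PP, acinar and endothelial cells overlapped. By limma 3 of 4 δ-cell and 5 of 7 tested stellate markers rose, with 1 ductal and 1 macrophage marker. The B-lineage sum was 66.6 to 76.7 FPKM in the libraries labelled Wtap-βKO and 12.5 to 16 FPKM in Wtap flox/flox libraries, carried by Igha, Igkc and Jchain, which rose. Igha and Jchain averaged 0.472 and 0.375 FPKM in Wtap flox/flox libraries. They thus passed the filter of 0.5 FPKM only through their higher group. Cd79a of the same list fell, at 2.04, 3.72 and 1.71 FPKM in the libraries labelled Wtap-βKO, against 7.99, 8.39 and 7.79 FPKM in Wtap flox/flox libraries. Replicate 2 labelled Wtap-βKO stood apart from the others of its group on the second principal component (16.2% of the variance). Results that rest on it are given with and without it.

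The integrated stress response slows general protein synthesis when a kinase phosphorylates the initiation factor eIF2. PERK (Eif2ak3) does this when unfolded proteins build up in the endoplasmic reticulum, and GCN2 (Eif2ak4) when amino acids run short. The same event raises translation of the transcription factor ATF4, which switches on genes for making and importing amino acids, charging transfer RNA and handling oxidants. β cells depend on this pathway because insulin synthesis loads their endoplasmic reticulum heavily. ATF4 is controlled chiefly through its translation and phosphorylation acts on protein, so messenger levels do not measure the activity of either step.

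ATF4 binds with a C/EBP partner to a composite site, searched here as the letters TGATGNAA on both strands in the RefSeq promoters of GRCm38.p6 (250 bases before to 50 after each start). Of the 35 genes, 30 had a promoter in that table, and 8 of the 30 (26.7%) held the letters, against 4.51% of the 27025 genes in the table. Most of the 35 genes were picked as known stress-response targets, so this share describes the choice. The promoter of Asns is shown whole as the best-studied case, on chr6:7693160-7693459, minus strand. For the other genes, 60 bases around the match are shown, and the likeness of the matches follows from the letters searched. Capitals mark the match, which reads TTNCATCA where it lies on the other strand.
Asns: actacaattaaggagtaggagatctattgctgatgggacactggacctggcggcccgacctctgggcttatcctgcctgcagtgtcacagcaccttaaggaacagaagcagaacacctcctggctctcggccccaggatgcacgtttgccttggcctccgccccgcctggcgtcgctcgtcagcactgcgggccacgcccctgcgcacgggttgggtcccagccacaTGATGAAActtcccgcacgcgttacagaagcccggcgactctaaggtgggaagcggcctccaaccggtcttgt
Chac1: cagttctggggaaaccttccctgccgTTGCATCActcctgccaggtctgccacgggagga
Trib3: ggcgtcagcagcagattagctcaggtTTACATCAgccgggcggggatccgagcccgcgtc
Slc7a11: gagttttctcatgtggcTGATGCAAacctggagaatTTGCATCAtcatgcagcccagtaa
Nupr1: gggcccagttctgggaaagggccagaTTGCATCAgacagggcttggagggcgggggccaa
Slc1a4: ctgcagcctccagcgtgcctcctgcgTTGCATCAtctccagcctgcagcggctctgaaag
Pycr1: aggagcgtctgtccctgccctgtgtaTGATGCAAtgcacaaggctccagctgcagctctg
Vldlr: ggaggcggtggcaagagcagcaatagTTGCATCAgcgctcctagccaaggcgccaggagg
The Slc7a11 promoter held the letters at 2 places, facing each other. The windows lie on chr2:119351023-119351082 (plus strand, Chac1), chr2:152344013-152344072 (minus, Trib3), chr3:50443637-50443696 (minus, Slc7a11), chr7:126625547-126625606 (minus, Nupr1), chr11:20332684-20332743 (minus, Slc1a4), chr11:120643818-120643877 (minus, Pycr1) and chr19:27216794-27216853 (plus, Vldlr). Among the genes with these letters Asns, Pycr1 and Vldlr fell and Nupr1 rose. Chac1, Trib3 and Slc1a4 did not pass by limma on all 6 libraries, and Slc7a11 was near 0.

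Across the 32 tested genes, 13 fell and 3 rose in the libraries labelled Wtap-βKO (limma, adjusted p under 0.05). Over all 15927 genes tested, 11.3% fell and 8.77% rose, so the share that fell was 40.6% here and the share that rose, 9.38%, was near that of all genes. The median log2 fold change was -0.30 over the 32 genes and -0.01 over all genes tested. The groups did not overlap in 17 genes that were lower (22.1% of all genes) and in 5 that were higher (19.1% of all genes). Without replicate 2 labelled Wtap-βKO, 14 fell (11.5% of all genes) and 1 rose (8.66% of all genes). The count of rises was also 1 without Wtap flox/flox replicate 1, and 0 without replicate 3 labelled Wtap-βKO or Wtap flox/flox replicate 2, although the fold changes of Shmt1, Slc1a5 and Nupr1 kept their sign. Scaling to total recovered reads gave 11 lower and 4 higher genes with a median of -0.19, while over all genes it turned 1798 lower and 1397 higher calls into 1094 and 2334.

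**Figure D1:**
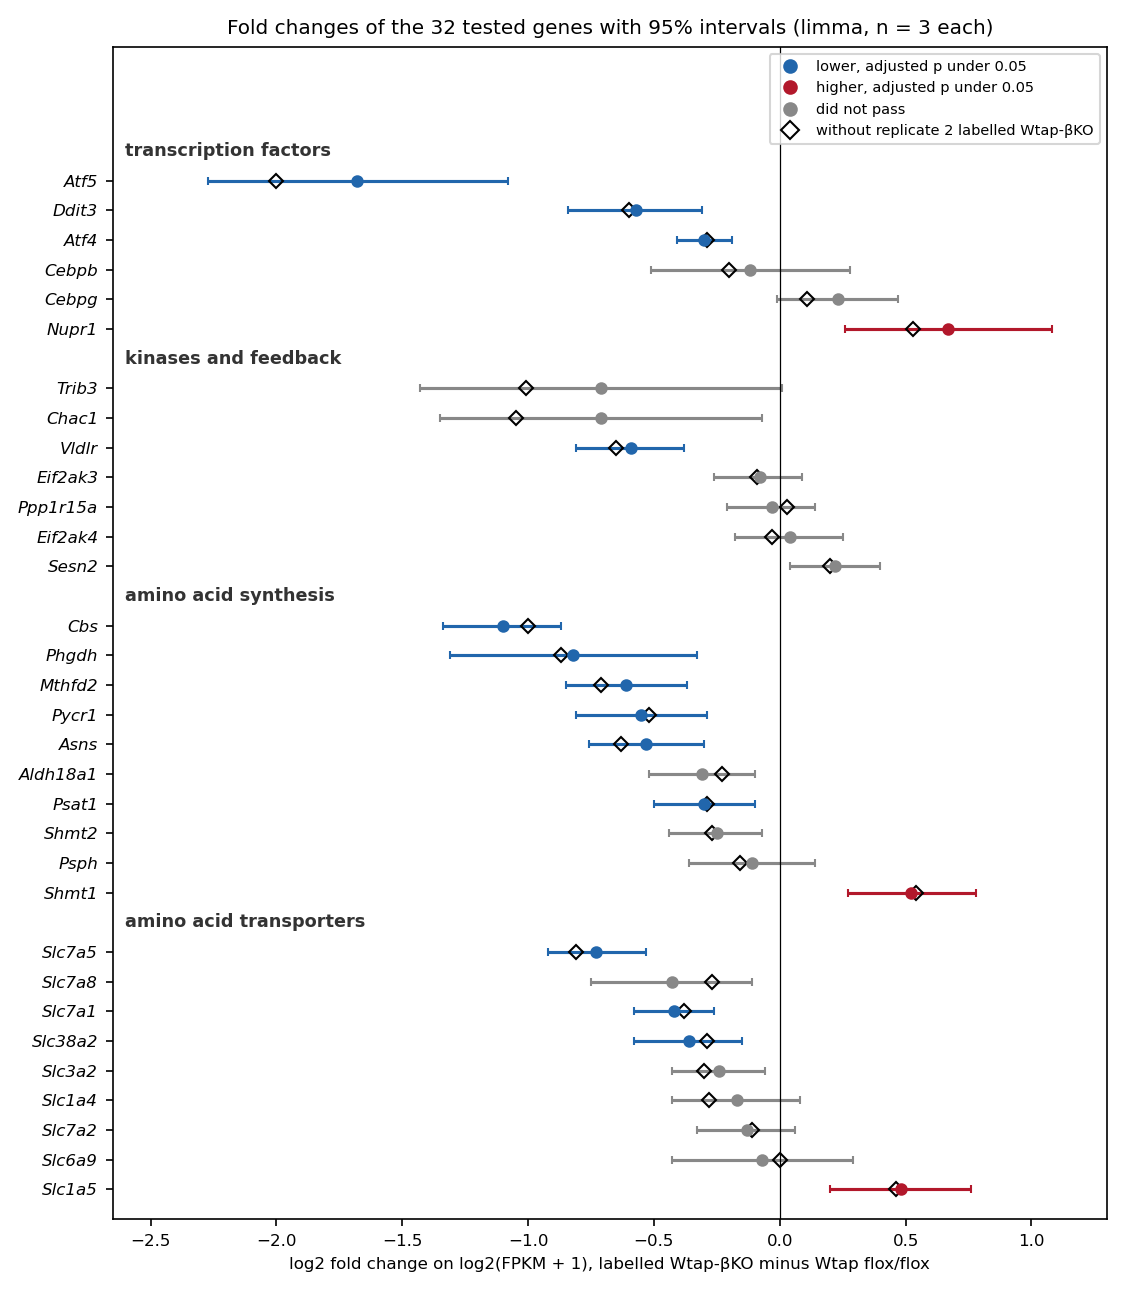
Log2 fold changes on log2(FPKM + 1) of the 32 tested genes, libraries labelled Wtap-βKO minus Wtap flox/flox, by role, with 95% intervals from limma. Filled circles are coloured by call and open diamonds leave out replicate 2 labelled Wtap-βKO. Atf5 lies lowest at -1.68, the intervals of Eif2ak3, Eif2ak4 and Ppp1r15a span 0, and Shmt1, Slc1a5 and Nupr1 lie on the higher side.

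Of the 6 transcription factors, Atf4, Atf5 and Ddit3 fell and Nupr1 rose. These are 50% and 16.7%, against 11.3% and 8.77% of all genes tested. Atf4, the central factor of the response, was the most abundant of the 35 genes. It was at 104, 102 and 103 FPKM in the libraries labelled Wtap-βKO, against 127, 126 and 126 FPKM in Wtap flox/flox libraries. The fall was small, 1.23-fold, but the replicates of each group lay within 2 FPKM of each other (log2 fold change -0.30 with SE 0.046, limma adjusted p = 0.00661). All 18 alternative analyses kept the call of Atf4, with adjusted p up to 0.0398. Scaled to total recovered reads, its log2 fold change shrank to -0.18 (limma adjusted p = 0.0358).

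Atf5 encodes a related factor that keeps β cells alive under endoplasmic reticulum stress in mice. Its gene occupies chr7:44812256-44816658 (GRCm38, minus strand). Atf5 was at 15.4, 30.3 and 14.5 FPKM in the libraries labelled Wtap-βKO, against 62.0, 62.2 and 64.4 FPKM in Wtap flox/flox libraries. The groups were far apart, and replicate 2 labelled Wtap-βKO was the nearest to the Wtap flox/flox libraries. The fall was 3.13-fold with all 6 libraries (log2 fold change -1.68 with SE 0.251, limma adjusted p = 0.0058). Without replicate 2 it was 4.21-fold (log2 fold change -2.0, adjusted p = 0.000186). Of the exonic bases of Atf5, 4.1% overlap Nup62 and Il4i1 on the other strand, and the library protocol does not mark strand.

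Ddit3 encodes CHOP, the factor linked to cell death under lasting stress. It was at 8.42, 9.29 and 9.07 FPKM in the libraries labelled Wtap-βKO, against 11.5, 14.1 and 15.9 FPKM in Wtap flox/flox libraries. The groups did not overlap, and Ddit3 was 1.55-fold lower (log2 fold change -0.57, adjusted p = 0.0147 by limma). The call was lost without replicate 1 labelled Wtap-βKO (adjusted p = 0.0504) and without Wtap flox/flox replicate 2 (adjusted p = 0.0552). Of its exonic bases, 4.0% overlap Mars, a gene of the other strand that also fell.

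Nupr1, a small stress-induced chromatin protein, went the other way. It had 90, 142 and 98 reads (1.90, 3.15 and 2.26 FPKM) in the libraries labelled Wtap-βKO, against 36, 45 and 67 reads (0.817, 1.13 and 1.5 FPKM) in Wtap flox/flox libraries. Nupr1 was 2.12-fold higher on the FPKM scale (log2 fold change 0.67, adjusted p = 0.0364 by limma), on few reads. Its call was lost in 6 of 17 alternatives, with adjusted p up to 0.103, and leaving out replicate 2 or 3 labelled Wtap-βKO or Wtap flox/flox replicate 1 or 2 each ended it. Acinar cells are known to express Nupr1. The sum of 12 acinar markers was 173 to 249 FPKM in the libraries labelled Wtap-βKO and 101 to 181 FPKM in Wtap flox/flox libraries. By limma 1 of the 9 tested rose, Ctrb1, and the acinar factor gene Ptf1a was at a mean of 0.0370 FPKM in the libraries labelled Wtap-βKO, against 0 FPKM in Wtap flox/flox libraries. The part of acinar RNA in the Nupr1 value was not tested.

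The C/EBP partners of ATF4 did not pass the test. Cebpb averaged 10.0 ± 1.53 FPKM in the libraries labelled Wtap-βKO and 11.0 ± 2.39 FPKM in Wtap flox/flox libraries (SD, n = 3 each), with a 95% interval of its log2 fold change of -0.51 to 0.28. Of the exonic bases of Cebpb, 20.7% overlap Tmem189 on the other strand. Cebpg was at 14.5, 18.2 and 13.8 FPKM in the libraries labelled Wtap-βKO, above the 13.2, 13.0 and 12.8 FPKM of Wtap flox/flox libraries, but with an adjusted p = 0.159 by limma. Replicate 2 was the highest of the libraries labelled Wtap-βKO for both genes.

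**Figure D2:**
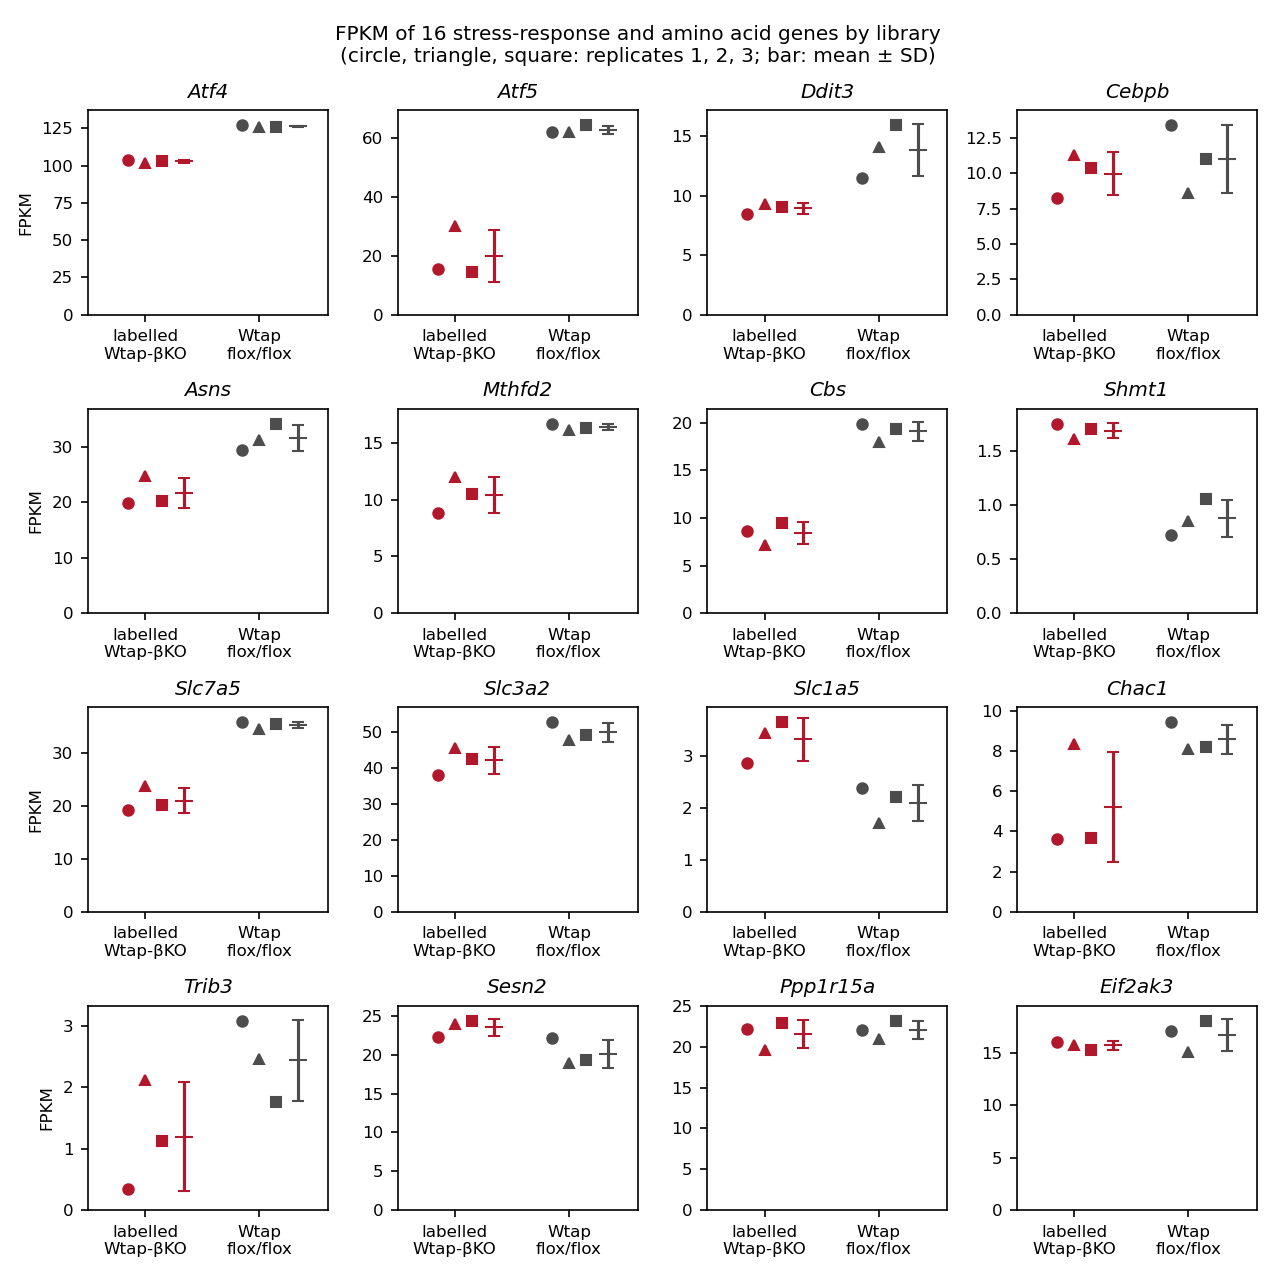
FPKM of 16 of the genes in each library, with the libraries labelled Wtap-βKO on the left and Wtap flox/flox on the right of each panel. Circles, triangles and squares are replicates 1, 2 and 3, and bars are means ± SD. Atf5, Asns, Mthfd2, Cbs and Slc7a5 show no overlap between the groups, while Chac1 and Trib3 overlap through replicate 2 labelled Wtap-βKO.

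Of 7 kinases and feedback genes, Vldlr fell and limma called 0 higher, as did voom, with 1 higher at an unadjusted p under 0.05. The share that fell, 14.3%, was near the 11.3% of all genes tested. The kinases that start the response and the phosphatase subunit that ends it did not pass the test. Eif2ak3 averaged 15.7 ± 0.436 FPKM in the libraries labelled Wtap-βKO and 16.8 ± 1.57 FPKM in Wtap flox/flox libraries, with a 95% interval of its log2 fold change of -0.26 to 0.09. Eif2ak4 averaged 4.51 ± 0.567 FPKM in the libraries labelled Wtap-βKO and 4.35 ± 0.189 FPKM in Wtap flox/flox libraries, with an interval of -0.18 to 0.25. Ppp1r15a, which encodes GADD34, averaged 21.6 ± 1.70 FPKM in the libraries labelled Wtap-βKO and 22.1 ± 1.10 FPKM in Wtap flox/flox libraries, with an interval of -0.21 to 0.14 (n = 3 each). The sign of Ppp1r15a turned in 4 alternatives, 3 of them scalings.

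Chac1 and Trib3, a pair of classical ATF4 and CHOP targets, split the libraries labelled Wtap-βKO. Chac1 encodes an enzyme that degrades glutathione. It was at 3.60, 8.39 and 3.65 FPKM in the libraries labelled Wtap-βKO, against 9.45, 8.12 and 8.21 FPKM in Wtap flox/flox libraries. Replicate 2 was inside the Wtap flox/flox range and the others were far below it, so Chac1 did not pass (log2 fold change -0.71, adjusted p = 0.11 by limma). Without replicate 2 the log2 fold change was -1.05 (adjusted p = 0.00162). Voom on the recovered reads of all 6 libraries did call Chac1 lower (log2 fold change -0.84, adjusted p = 0.0227). Of 18 alternatives, 16 did not call Chac1.

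Trib3, a pseudokinase that restrains AKT and ATF4, followed the same pattern on fewer reads. It had 14, 81 and 41 reads (0.349, 2.13 and 1.12 FPKM) in the libraries labelled Wtap-βKO, against 115, 83 and 67 reads (3.09, 2.47 and 1.77 FPKM) in Wtap flox/flox libraries. The groups overlapped through replicate 2, and the test was not passed (log2 fold change -0.71, adjusted p = 0.147 by limma). Without replicate 2 Trib3 was 3.33-fold lower (adjusted p = 0.0399), against 2.04-fold with all 6 libraries, and voom on the recovered reads of all 6 libraries gave an adjusted p = 0.0446. Of 17 alternatives, 15 did not call Trib3.

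Vldlr, a lipoprotein receptor that ATF4 raises under stress, was steadier. It was at 5.28, 6.10 and 5.29 FPKM in the libraries labelled Wtap-βKO, against 8.11, 9.89 and 8.68 FPKM in Wtap flox/flox libraries. It fell 1.6-fold without overlap (log2 fold change -0.59, adjusted p = 0.00617 by limma), and all 18 alternatives kept the call. Sesn2, a leucine sensor that holds back mTORC1, did not pass at 22.3, 24.0 and 24.4 FPKM in the libraries labelled Wtap-βKO, against 22.2, 18.9 and 19.3 FPKM in Wtap flox/flox libraries (adjusted p = 0.0876). It was called higher when scaled to total recovered reads (adjusted p = 0.0292), without the 50 highest genes (0.0344) or after quantile normalization (0.0383). The other 15 of 18 alternatives did not call Sesn2.

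Replicate 2 was the nearest of the libraries labelled Wtap-βKO to the Wtap flox/flox mean for 12 of the 26 tested genes with a negative fold change, against 7 each for replicates 1 and 3. These 12 included Atf5, Chac1, Trib3, Asns, Mthfd2, Slc7a5, Slc3a2 and Slc1a4. Cbs, Slc7a8, Slc7a1 and Slc38a2, with 4 more of the 26, were at their lowest in that same library. Among the 13 genes called lower, replicate 2 was the nearest for 6, replicate 1 for 4 and replicate 3 for 3. The genes named here were sorted by these same values, so the sorting only describes them. Replicate 2 labelled Wtap-βKO also had the highest sum of PP-cell hormone genes, 26400 FPKM against 12800 and 12900 FPKM in the others of its group. The part of cell makeup in these values was not tested.

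**Figure D3:**
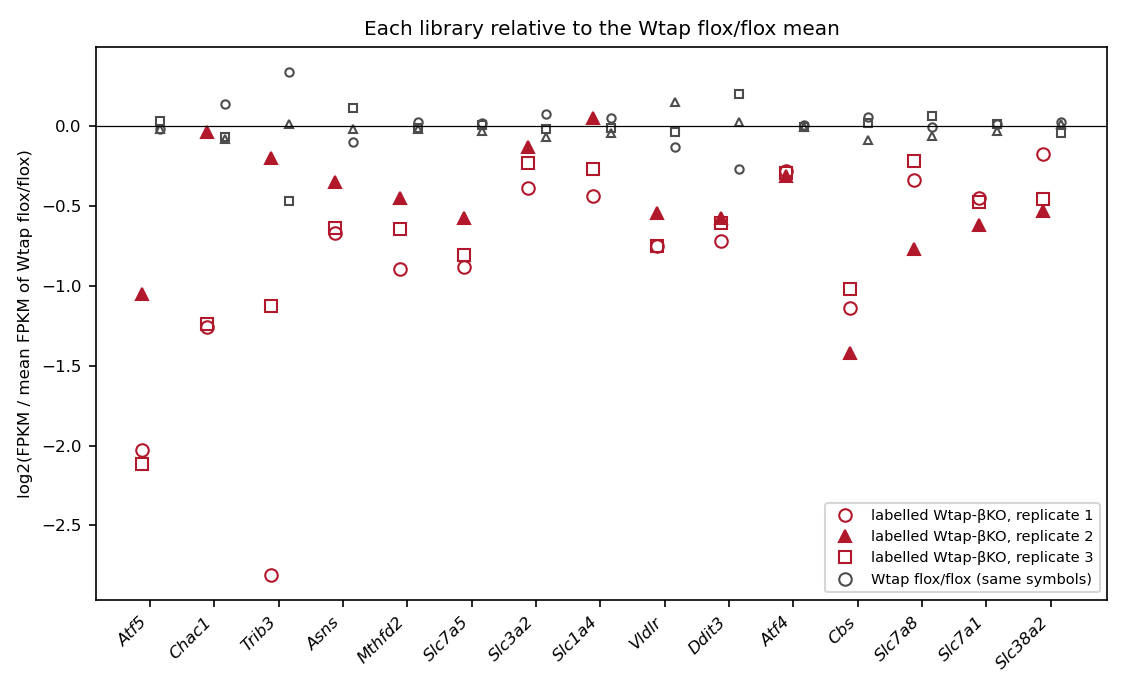
Log2 of the FPKM in each library over the mean of Wtap flox/flox libraries, for 15 of the genes. Red symbols are the libraries labelled Wtap-βKO, with replicate 2 filled, and small grey symbols are Wtap flox/flox libraries. Replicate 2 lies above the other red symbols for Atf5, Chac1, Trib3 and Asns, and below them for Cbs, Slc7a8, Slc7a1 and Slc38a2.

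Enzymes of amino acid synthesis held the most falls, 6 of 10 tested, with 1 rise. These are 60% and 10%, against 11.3% and 8.77% of all genes tested. Asns makes asparagine and occupies chr6:7675169-7693254 (minus strand), and its ATF4-type letters begin 23 bases before the RefSeq start, which lies inside that span. Asns was at 19.9, 24.8 and 20.3 FPKM in the libraries labelled Wtap-βKO, against 29.5, 31.2 and 34.2 FPKM in Wtap flox/flox libraries. The groups did not overlap, and it fell 1.46-fold (log2 fold change -0.53, adjusted p = 0.0118 by limma).

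Cbs, the entry enzyme of transsulfuration that joins homocysteine to serine, fell most among the enzymes. It occupies chr17:31612623-31637199 (minus strand). It was at 8.68, 7.13 and 9.44 FPKM in the libraries labelled Wtap-βKO, against 19.9, 18 and 19.4 FPKM in Wtap flox/flox libraries. That is 2.27-fold lower (log2 fold change -1.10 with SE 0.10, limma adjusted p = 0.00094), and every alternative kept the call, with adjusted p up to 0.00768. Cth, which completes the pathway to cysteine, was barely detected, with 22, 12 and 20 reads in the libraries labelled Wtap-βKO and 14, 6 and 6 reads in Wtap flox/flox libraries.

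Serine is made from a glycolytic intermediate by PHGDH, PSAT1 and PSPH. Phgdh was at 1.41, 2.31 and 2.73 FPKM in the libraries labelled Wtap-βKO, against 4.66, 3.36 and 5.63 FPKM in Wtap flox/flox libraries, and fell 2.12-fold (adjusted p = 0.0338 by limma). The call was lost in 5 of 17 alternatives, among them leaving out replicate 1 or 2 labelled Wtap-βKO or Wtap flox/flox replicate 1 or 3, with adjusted p up to 0.101. Psat1 averaged 1.84 ± 0.0664 FPKM in the libraries labelled Wtap-βKO and 2.50 ± 0.210 FPKM in Wtap flox/flox libraries. It passed narrowly (adjusted p = 0.0492), and 11 of 17 alternatives, including leaving out any 1 of the 6 libraries, lost it. Psph averaged 1.78 ± 0.198 FPKM in the libraries labelled Wtap-βKO and 2.0 ± 0.268 FPKM in Wtap flox/flox libraries and did not pass (95% interval of the log2 fold change -0.36 to 0.14). All were low in these islets, and 10.4% of the exonic bases of Psph overlap the more abundant gene Cct6a.

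Folate enzymes moved in both directions. Mthfd2, the mitochondrial enzyme of one-carbon metabolism, was at 8.84, 12 and 10.5 FPKM in the libraries labelled Wtap-βKO, against 16.7, 16.2 and 16.3 FPKM in Wtap flox/flox libraries. It fell 1.57-fold (log2 fold change -0.61, adjusted p = 0.00846 by limma). Shmt2, which splits serine in mitochondria, did not pass at 5.41, 6.11 and 6.44 FPKM in the libraries labelled Wtap-βKO, against 7.07, 7.76 and 7.14 FPKM in Wtap flox/flox libraries, without overlap (adjusted p = 0.0618). Its cytosolic counterpart Shmt1 rose, with 128, 112 and 114 reads (1.75, 1.61 and 1.70 FPKM) in the libraries labelled Wtap-βKO and 49, 52 and 73 reads (0.720, 0.848 and 1.06 FPKM) in Wtap flox/flox libraries. Shmt1 was 1.93-fold higher on the FPKM scale (adjusted p = 0.0174 by limma). Of its exonic bases, 4.7% overlap Smcr8 (7.72 FPKM on average) on the other strand. Leaving out replicate 1 or 3 labelled Wtap-βKO or Wtap flox/flox replicate 1 or 2 ended its call, with adjusted p from 0.0555 to 0.0588. The difference between the fold changes of Mthfd2 or Shmt2 and Shmt1 was not tested.

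Proline is made from glutamate by ALDH18A1 and the PYCR enzymes. Pycr1 was at 4.95, 5.12 and 6.35 FPKM in the libraries labelled Wtap-βKO, against 7.5, 8.70 and 9.24 FPKM in Wtap flox/flox libraries, and fell 1.55-fold (adjusted p = 0.0151 by limma). Its call was lost without Wtap flox/flox replicate 2 (adjusted p = 0.0563) or 3 (adjusted p = 0.0547). Aldh18a1 was at 22, 19.7 and 24.6 FPKM in the libraries labelled Wtap-βKO, against 26.4, 26.7 and 29.6 FPKM in Wtap flox/flox libraries. Its groups did not overlap, but it did not pass (log2 fold change -0.31, adjusted p = 0.0531), and voom on the recovered reads did call it lower (adjusted p = 0.0133). Of 18 alternatives, 14 did not call Aldh18a1.

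Of the 9 amino acid transporters tested, 3 fell (33.3%, against 11.3% of all genes tested) and 1 rose (11.1%, near the 8.77% of all genes). Slc7a5 encodes LAT1, which imports leucine and other large neutral amino acids once joined to the heavy chain encoded by Slc3a2. It occupies chr8:121881150-121907694 (minus strand). Slc7a5 was at 19.1, 23.6 and 20.1 FPKM in the libraries labelled Wtap-βKO, against 35.7, 34.5 and 35.4 FPKM in Wtap flox/flox libraries. The groups were well apart, the fall was 1.68-fold (log2 fold change -0.73, adjusted p = 0.00205 by limma), and all 18 alternatives kept the call.

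The heavy chain Slc3a2 was at 38.1, 45.5 and 42.6 FPKM in the libraries labelled Wtap-βKO, against 52.7, 47.7 and 49.3 FPKM in Wtap flox/flox libraries. These did not overlap, but Slc3a2 did not pass with all 6 libraries (adjusted p = 0.0689 by limma) and did without replicate 2 labelled Wtap-βKO (adjusted p = 0.0345). With all 6 libraries, voom called Slc3a2 lower (adjusted p = 0.0287), as did limma with a filter of at least 5 FPKM (adjusted p = 0.0495). The other 15 of 18 alternatives did not call Slc3a2. Slc7a8, the second light chain LAT2, was at 36.6, 27.2 and 39.9 FPKM in the libraries labelled Wtap-βKO, against 46.1, 44.3 and 48.5 FPKM in Wtap flox/flox libraries (adjusted p = 0.0648). It too passed without replicate 2 (log2 fold change -0.27, adjusted p = 0.0343), where its fall was smaller than the -0.43 of all libraries. Of 18 alternatives 5 called Slc7a8 lower, among them voom (adjusted p = 0.00975) and the filter of at least 5 FPKM (adjusted p = 0.0386).

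Cationic amino acids such as arginine enter through the CAT transporters. Slc7a1 (CAT1), a stress-induced carrier, was at 4.15, 3.69 and 4.09 FPKM in the libraries labelled Wtap-βKO, against 5.72, 5.56 and 5.74 FPKM in Wtap flox/flox libraries, and fell 1.43-fold (adjusted p = 0.00725 by limma). Slc7a2 (CAT2) was the most abundant transporter of the set. It was at 81.3, 70.3 and 68.1 FPKM in the libraries labelled Wtap-βKO, against 81.5, 83.9 and 75.7 FPKM in Wtap flox/flox libraries, which overlapped (95% interval of the log2 fold change -0.33 to 0.06). Slc7a3 (CAT3) was low, at 0.310 to 0.598 FPKM in the libraries labelled Wtap-βKO, against 0.268 to 0.407 FPKM in Wtap flox/flox libraries.

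Sodium-coupled carriers of neutral amino acids went both ways. Slc38a2 (SNAT2), which is induced by amino acid shortage, was at 16.8, 13.1 and 13.8 FPKM in the libraries labelled Wtap-βKO, against 19.3, 19.1 and 18.4 FPKM in Wtap flox/flox libraries. It fell 1.3-fold (adjusted p = 0.0342 by limma), but 10 of 18 alternatives lost the call. These included every rescaling other than median of ratios and leaving out any library except replicate 1 of those labelled Wtap-βKO. Slc1a5 (ASCT2), a glutamine carrier, rose 1.58-fold, to 2.86, 3.45 and 3.65 FPKM in the libraries labelled Wtap-βKO, against 2.38, 1.71 and 2.20 FPKM in Wtap flox/flox libraries (adjusted p = 0.0304). Its call was lost in 6 of 17 alternatives, among them leaving out replicate 2 or 3 labelled Wtap-βKO or Wtap flox/flox replicate 2 or 3, with adjusted p up to 0.0975.

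The remaining carriers did not pass the test. Slc1a4 (ASCT1) was at 3.31, 4.64 and 3.71 FPKM in the libraries labelled Wtap-βKO, against 4.64, 4.34 and 4.44 FPKM in Wtap flox/flox libraries (adjusted p = 0.301 by limma). The glycine carrier Slc6a9 averaged 0.668 ± 0.237 FPKM in the libraries labelled Wtap-βKO and 0.742 ± 0.179 FPKM in Wtap flox/flox libraries, and 27.8% of its exonic bases overlap Ccdc24 on the other strand. Slc7a11 (xCT), the cystine importer and a known ATF4 target, had 9, 1 and 4 reads in the libraries labelled Wtap-βKO and 3, 1 and 6 reads in Wtap flox/flox libraries. At this depth no difference in Slc7a11 was detectable.

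By level per length, Atf4 stood highest, followed by Slc7a2, Slc3a2, Slc7a8 and, in Wtap flox/flox libraries, Atf5. Atf5 exceeded Slc7a8 and Slc3a2 in every Wtap flox/flox library and lay below both in every library labelled Wtap-βKO except replicate 2, where Atf5 (30.3 FPKM) was above Slc7a8 (27.2 FPKM). Slc7a5 and Asns lay within 7 FPKM of each other in every library. The lowest were Slc7a11, Cth and Slc7a3.

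Related genes that were not among the 35 were counted from lists chosen by pathway. Of 29 other ATF4 and CHOP targets tested, 13 fell (44.8%, against 11.3% of all genes tested) and 1 rose (3.45%, against 8.77%). Their median log2 fold change was -0.21. Aminoacyl-tRNA synthetases made up 9 of the 13, with none of their 11 members higher. Of the 18 tested targets that are not synthetases, 4 fell. Gars, which charges glycine transfer RNA, averaged 37.3 ± 1.12 FPKM in the libraries labelled Wtap-βKO and 64.9 ± 3.33 FPKM in Wtap flox/flox libraries (adjusted p = 0.000494 by limma). Mars, for methionine, fell 1.54-fold, and Xpot, which exports transfer RNA from the nucleus, 1.39-fold. Sqstm1, the autophagy receptor p62, fell to 90.7 ± 5.51 FPKM in the libraries labelled Wtap-βKO, against 129 ± 5.81 FPKM in Wtap flox/flox libraries. The single rise was that of Ddit4, an mTORC1 inhibitor also known as REDD1, named here after its value was seen, at 144 ± 23.6 FPKM in the libraries labelled Wtap-βKO, against 98.0 ± 4.18 FPKM in Wtap flox/flox libraries (adjusted p = 0.0196). Without Wtap flox/flox replicate 3, 8 targets of the list fell. The call of Ddit4 was lost without replicate 1 labelled Wtap-βKO or any 1 Wtap flox/flox library.

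Genes of the ATF6 and XBP1 arms of the unfolded protein response were counted alongside. Of 30 tested, 15 were lower (50%, against 11.3% of all genes tested) and 2 higher (6.67%, against 8.77%). The median log2 fold change was -0.31. Atf6 itself fell 1.47-fold to 16.7 ± 1.37 FPKM in the libraries labelled Wtap-βKO, against 24.7 ± 0.583 FPKM in Wtap flox/flox libraries, and Atf6b fell 1.37-fold. Edem1 and Derl2, which help remove misfolded proteins from the endoplasmic reticulum, fell 1.87-fold and 1.79-fold. The 2 rises, named here after their values were seen, were Ern1 at 1.22-fold and Pdia4 at 1.25-fold. Ern1 lost its call in 1 of 18 alternatives and Pdia4 in 7. The other 13 genes of the list did not pass. Among them were Xbp1 (log2 fold change -0.13), Hspa5 (0.18) and Hsp90b1 (0), also named after their values were seen. The count of 15 came to 8 when scaled to total recovered reads and to 8 without any 1 of the Wtap flox/flox libraries. A difference between this list and the 35 genes was not tested.

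Of 16 genes that regulate eIF2, 1 fell (6.25%, against 11.3% of all genes tested). It was Impact, an inhibitor of GCN2, at 21.7 ± 1.26 FPKM in the libraries labelled Wtap-βKO and 27.6 ± 1.36 FPKM in Wtap flox/flox libraries (adjusted p = 0.0143 by limma). Limma called 0 of the 16 higher, as did voom, with 1 higher at an unadjusted p under 0.05. Eif2b5 and Eif2b4, subunits of the eIF2 exchange factor, averaged 16.1 ± 0.916 and 10.2 ± 0.979 FPKM in the libraries labelled Wtap-βKO and 18.9 ± 0.822 and 12.2 ± 0.584 FPKM in Wtap flox/flox libraries, without passing. The heme-regulated kinase Eif2ak1 had an adjusted p = 0.105. Leaving out replicate 3 labelled Wtap-βKO or Wtap flox/flox replicate 1 or 2 ended the call of Impact, while 3 genes of the list were lower without replicate 2 labelled Wtap-βKO.

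Of 29 other enzymes of one-carbon, glycine, glutamate and proline metabolism, 4 fell and 2 rose, with a median log2 fold change of 0.05. These shares, 13.8% and 6.9%, were near the 11.3% and 8.77% of all genes tested. Folate enzymes made up 3 of the 4 falls. Aldh1l2, the mitochondrial 10-formyltetrahydrofolate dehydrogenase, fell 4.43-fold to 0.801 ± 0.151 FPKM in the libraries labelled Wtap-βKO, against 3.55 ± 0.0857 FPKM in Wtap flox/flox libraries (log2 fold change -1.34, adjusted p = 0.000441 by limma). Mthfd1l, also mitochondrial, fell 1.80-fold, and the cytosolic Mthfd1 fell to 20.6 ± 0.688 FPKM in the libraries labelled Wtap-βKO, against 35 ± 0.443 FPKM in Wtap flox/flox libraries. Mat2a, which makes the methyl donor S-adenosylmethionine, rose to 23.4 ± 1.03 FPKM in the libraries labelled Wtap-βKO, against 15.2 ± 0.720 FPKM in Wtap flox/flox libraries (adjusted p = 0.00155), and all 18 alternatives kept that call. The other rise, Sds, named here after its value was seen, averaged 0.900 FPKM in the libraries labelled Wtap-βKO and 0.335 FPKM in Wtap flox/flox libraries. Sds passed the filter of 0.5 FPKM only through its higher group. The count of 2 rises was 1 without replicate 3 labelled Wtap-βKO or any 1 Wtap flox/flox library.

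Of 19 other amino acid transporters, 3 fell and 2 rose, with a median log2 fold change of -0.03. Slc16a10, a carrier of aromatic amino acids, rose 1.55-fold to 95.5 ± 12.2 FPKM in the libraries labelled Wtap-βKO, against 61.7 ± 2.01 FPKM in Wtap flox/flox libraries. Slc38a11, a little-studied member of the SNAT family, rose 2.08-fold at a low level, and lost its call without replicate 3 labelled Wtap-βKO or Wtap flox/flox replicate 2. The taurine carrier Slc6a6 fell 1.29-fold, and Slc38a4 (SNAT4) 1.43-fold. Of 34 genes of amino acid sensing by mTORC1, 5 fell and 2 rose, with a median of -0.14. Among these Flcn, a GTPase-activating protein for Rag GTPases, fell 1.76-fold, its partner Fnip1 1.5-fold and the GATOR2 subunit gene Seh1l 1.35-fold, and the Rag gene Rragb rose 1.23-fold. Flcn lost its call without Wtap flox/flox replicate 1 or 2, Rragb without these or replicate 3 labelled Wtap-βKO, and Fnip1 without these or replicate 1 or 3 labelled Wtap-βKO. The count of falls in this list was 1 to 3 when any 1 of the libraries was left out, except for replicate 2 labelled Wtap-βKO (5). These shares for transporters and mTORC1 sensing are near those of all genes tested, 11.3% lower and 8.77% higher.

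**Figure D4:**
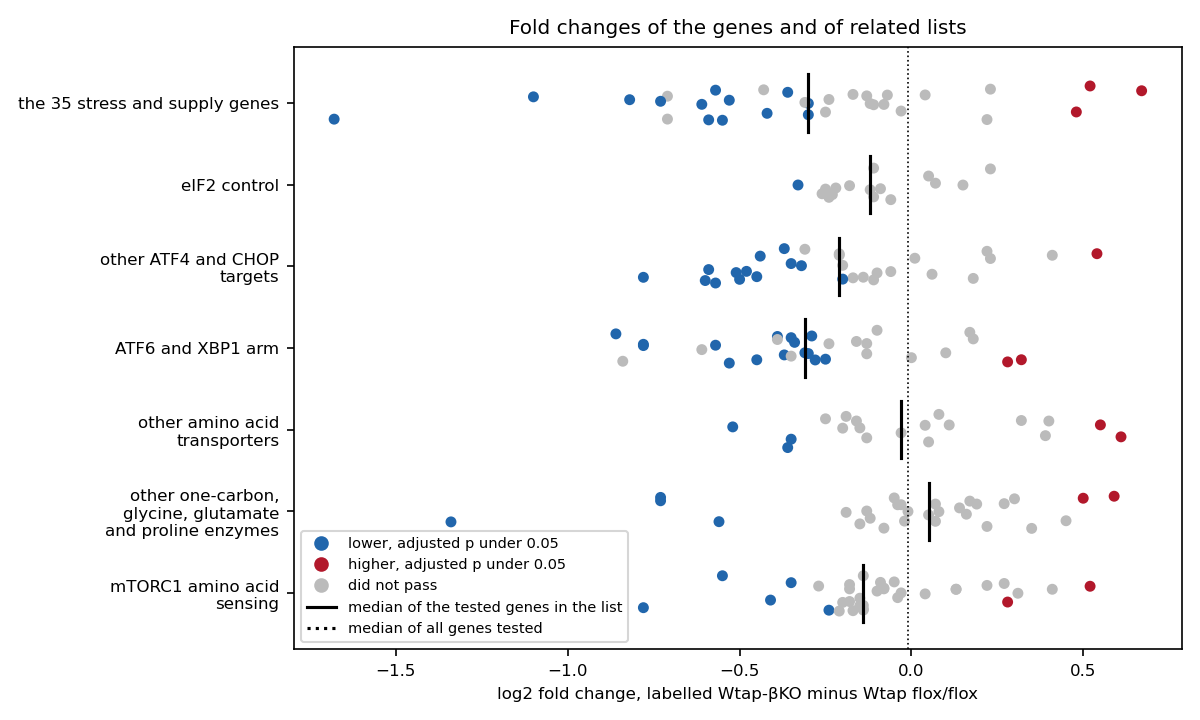
Log2 fold changes, libraries labelled Wtap-βKO minus Wtap flox/flox, of the tested genes among the 35 and in 6 related lists. Each point is a gene coloured by its call, short black lines are list medians and the dotted line is the median of all genes tested, -0.01. Medians range from -0.31 for the ATF6 and XBP1 arm to 0.05 for the other metabolic enzymes.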

How the data were processed

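Poly-A RNA of pooled mouse islets was sequenced in 3 libraries labelled Wtap-βKO and 3 Wtap flox/flox libraries. The deposited table gives FPKM and a gene length for every gene, per the file headers. The submitters' processing notes name HISAT2 2.0.5, featureCounts 1.5.0-p3, DESeq2 1.20.0 and CASAVA with the builds GRCm38 and mm10, without roles. The gene annotation used was not stated.

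Multiplying FPKM by gene length and dividing by the step of 1 read gave whole reads (tolerance 0.01) for 100.0% of values. The implied library sizes were 1.037 to 1.068 times the summed reads in the libraries labelled Wtap-βKO and 0.952 to 0.988 times in Wtap flox/flox libraries. The deposited FPKM thus carry a scaling between samples that differs by group. Scaling to total recovered reads instead moved the median log2 fold change of all genes tested from -0.01 to 0.08. Median-of-ratios factors were 1.01 in all 6, so FPKM was used as deposited. Reads of PCR libraries are not independent molecules.

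Genes with a mean of at least 0.5 FPKM were tested as log2(FPKM + 1) with limma 3.58.1 in R 4.3.3 (variance trend, two-sided, Benjamini-Hochberg over 15927 genes, threshold 0.05). Log2 fold changes are on that scale and understate low genes, and fold values are ratios of mean FPKM. SE and intervals are limma's moderated ones. Labels call the samples independent biological replicates. The script was tested on simulated data. The 18 alternatives cover scaling, pseudocount (0.1, 0.5), filter, variance model, voom, the replicate block and leaving out each library.

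The genes and lists were chosen with earlier results of these data known. Named were all 35 genes, Wtap, marker genes, genes overlapping the 35, and up to 4 genes per related list with the smallest adjusted p and at least 1 FPKM in the higher group. Ddit4, Ern1, Pdia4, Xbp1, Hspa5, Hsp90b1 and Sds were named in addition, after their values were seen. Exon overlaps came from GENCODE M21. Promoters are RefSeq's, GRCm38.p6. Python 3.11.15, pandas 2.3.3 and matplotlib 3.10.9 were used.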

Additional observations from a re-analysis of the deposited data

How the results depend on the processing

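Of the 13 falls, 8 (Atf4, Atf5, Asns, Mthfd2, Cbs, Slc7a1, Slc7a5 and Vldlr) passed in every alternative run on them, and 5 lost the call in at least 1. None of the 3 rises (Shmt1, Slc1a5 and Nupr1) passed in all. No call among the named genes turned its direction. Leaving out each library in turn gave 9 to 14 falls and 0 to 2 rises among the 35 genes (1020 to 1834 and 774 to 1379 over all genes). Over the related lists it gave 0 to 3 lower genes for eIF2 control and 0 higher, 8 to 12 and 0 to 1 for other ATF4 and CHOP targets, 8 to 15 and 0 to 2 for the ATF6 and XBP1 arm, 2 to 4 and 1 to 3 for other transporters, 4 and 1 to 3 for other metabolic enzymes, and 1 to 5 and 0 to 3 for mTORC1 sensing. Scaling to total recovered reads set all genes called higher at 2334 and all genes called lower at 1094, with 1 higher and 0 lower for eIF2 control, 4 and 8 for the ATF6 and XBP1 arm, 7 higher metabolic enzymes, and 4 higher and 3 lower mTORC1 genes. Without the 50 highest genes all genes called higher came to 2098 (1223 lower), with 1 higher for eIF2 control, 7 higher metabolic enzymes and 4 higher mTORC1 genes. Quantile normalization gave 1 higher eIF2 gene, 8 lower genes of the ATF6 and XBP1 arm and 4 higher mTORC1 genes. Without a filter, 1 of the 35 genes rose, the ATF6 and XBP1 arm had 1 higher and 9 lower, and metabolic enzymes and mTORC1 sensing had 1 higher each. A mean of at least 5 FPKM left out all 3 rises (0 higher) and gave 3 lower eIF2 genes, 1 higher transporter and 4 higher mTORC1 genes. Without a variance trend 1 gene of the ATF6 and XBP1 arm and 5 metabolic enzymes were higher. Voom called 18 of the 35 genes lower and 3 higher, 2 eIF2 genes lower, and 4 transporters, 6 metabolic enzymes and 4 mTORC1 genes higher. The causes of these shifts were not tested.

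The replicate numbers are not said to pair samples, and the deviations of same-numbered libraries correlated at 0.018 to 0.038. Each library correlated best with its own number. With the replicate block 14 of the 35 genes fell and 2 rose, and 4 mTORC1 genes were higher. Genes near 1 FPKM, such as Trib3, Nupr1 and Shmt1, rest on 14 to 142 reads a library, which limits their precision.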
